A study of Mus musculus with 12 samples.

Results

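The comparison of growth differentiation factor 9 (GDF9) with control medium rested on 8 of the 12 arrays of the series, the 4 titled as GDF9-treated and the 4 titled as 293H control. It covered 19938 genes, each read through the probe set with its highest mean over the 12 arrays, and the test was run over all 35399 rows of the deposited table. All arrays held RNA of cumulus cells of female 129SV mice aged 21 to 26 days, which had received 5 IU equine chorionic gonadotropin, a hormone that drives follicle growth, 44 h before collection. The rinse of the ovaries held 1 µM cilostamide, which inhibits a phosphodiesterase. Whole cumulus-oocyte complexes were then cultured for 8 h, 20 to a drop of 50 µL, and the oocytes were removed only after culture. Control complexes were held in 293H control medium at 0.125% by volume, and GDF9 complexes received 20 ng/ml GDF9. The labels do not say whether the GDF9 group also had that control medium, so GDF9 and the medium cannot be told apart here. A further group of 4 arrays (FSH/EGF), which had 50 mIU/ml FSH, 10 ng/ml EGF and the control medium, serves only for the spread of the model and as a reference for size. Each array held the pooled RNA of 2 of 8 biological replicates, so that p-values measure the spread between such pools.

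GDF9 is a ligand of the TGF-beta family that the oocyte secretes. It binds the type II receptor BMPR2 and the type I receptor TGFBR1 on granulosa and cumulus cells and signals through SMAD2 and SMAD3. In cumulus cells, oocyte factors are known for enabling the hyaluronan matrix of cumulus expansion, for sustaining cholesterol synthesis and glycolysis, and for holding down genes of mural granulosa cells. Oocytes were present in both conditions during culture, so that added GDF9 came on top of what they made.

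Values are given on the log2 scale of the table, where a difference of 1 is 2-fold, with arrays in the order of their replicate numbers, means with the SD over 4 arrays, and differences as GDF9 minus control with the standard error (SE) of the limma model. Granulosa and cumulus genes were high in both groups. Inha, the inhibin alpha subunit, stood at 11.70 ± 0.05 (SD, n = 4) in controls and 11.79 ± 0.12 with GDF9, and Fshr, the FSH receptor, at 8.40 ± 0.11 and 8.47 ± 0.14. Defining markers of leukocytes, endothelium and red blood cells were dim: the means of these 3 lists lay between 4.70 and 5.73 on each of the 8 arrays, near the array medians of 5.42 to 5.53. In bulk RNA, fewer cells of a type and less RNA per cell cannot be told apart.

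Control arrays 1 and 4 stood apart from the other controls. On control 4 the mean of 24 oocyte markers was 5.85, against 4.95 to 5.09 on the other controls and 4.81 to 4.96 on the GDF9 arrays, and 20 of the 24 had their highest value there. Gdf9 itself, the oocyte's own transcript, stood at 6.88 on control 4 and at 5.34 to 5.62 on controls 1 to 3, with 5.18 to 5.44 on the GDF9 arrays. Control 1 was high in Snord15a, a small nucleolar RNA picked after its values were seen, which was at 10.56 there, 6.70 to 8.29 on the other controls and 6.92 to 9.04 with GDF9. limma's array weights were 0.269 for control 1, 0.485 and 0.565 for GDF9 arrays 1 and 2, and at least 0.978 for the other 5. Their part in the gene differences was not tested beyond the values without these arrays given below.

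The arrays of GDF9 and control did not separate. The mean correlation over all rows between a GDF9 and a control array was 0.986 (range 0.965 to 0.993), against 0.987 among GDF9 arrays and 0.983 among controls. Control and FSH/EGF arrays correlated at a mean of 0.955. Of the total sum of squares over the 8 arrays, 10.8% lay between GDF9 and control, where 66.9% lay between FSH/EGF and control over their 8. The first principal component of the 8 arrays held 42.4% of the variance and ran from GDF9 array 1 to control array 1, with the other 6 between them, and the groups overlapped on each of the first 4 components.

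**Figure D1:**
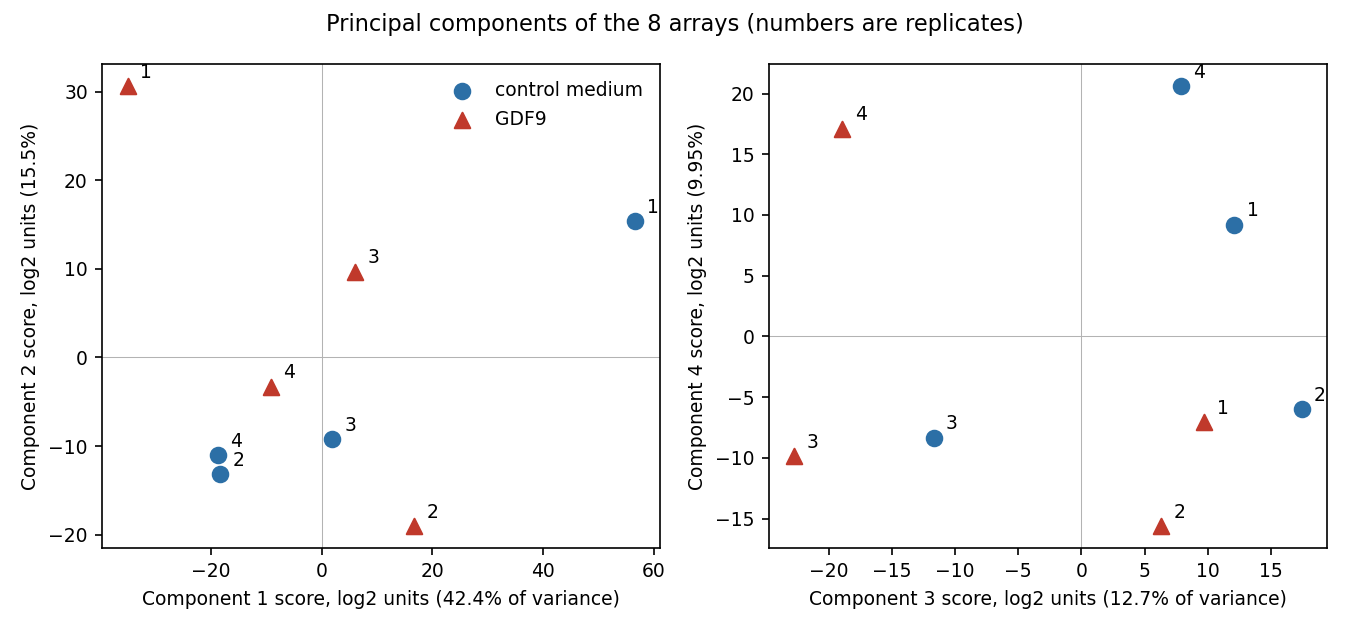
Scores of the 4 control arrays (circles) and 4 GDF9 arrays (triangles) on principal components 1 and 2 (left) and 3 and 4 (right), in log2 units, with the share of variance on each axis. Control 1 lies far to one side of component 1 and GDF9 1 to the other, and the groups overlap on all 4 components.

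None of the 35399 rows (0%) passed a limma adjusted p of 0.05, and the lowest value was 0.847. An unadjusted p under 0.05 was reached by 4.49% of rows, 2.57% higher and 1.92% lower with GDF9, and groups without overlap were found in 1.98%. Of the 19938 genes, 987 reached it (4.95%), 531 of them higher (2.66%) and 456 lower (2.29%). The 4 GDF9 arrays lay beyond the 4 controls in 462 genes (2.32%), above them in 217 (1.09%) and below them in 245 (1.23%). With FSH/EGF against the same controls, 7334 genes (36.8%) and 29% of rows passed.

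The intervals of the differences were narrow for nearly all genes. No gene differed by 2-fold between the group means, and 22 were higher and 18 lower by at least 0.5, where FSH/EGF had 1024 genes higher and 447 lower by at least 1. The 95% interval of the difference lay within 2-fold either way for 19881 genes (99.71%) and within 0.5 either way for 18144 (91%). The interval reached beyond 2-fold upward in 34 genes and downward in 30. The median SE was 0.10. Intervals were wider for the 9060 genes with a mean of at least 6. There 99.58% lay within 2-fold and 84.66% within 0.5, and the median SE was 0.11.

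The direction of the bulk of genes depended on their level. Over all genes the median difference was -0.02 with 43.7% higher and 56.3% lower with GDF9, while over the 9060 genes with a mean of at least 6 the median was 0.05 and 64.7% were higher. The latter share was 51.6% after renewed quantile normalization and 74.3% with equal array medians. Among genes at an unadjusted p under 0.05, 53.8% were higher. This was 48.4% after the quantile step, 77.7% with equal array medians and 68.4% with the dimmest 40% of rows left out. A gene list of well-expressed genes is therefore set beside the median of 0.05 as well as that of all genes.

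**Figure D2:**
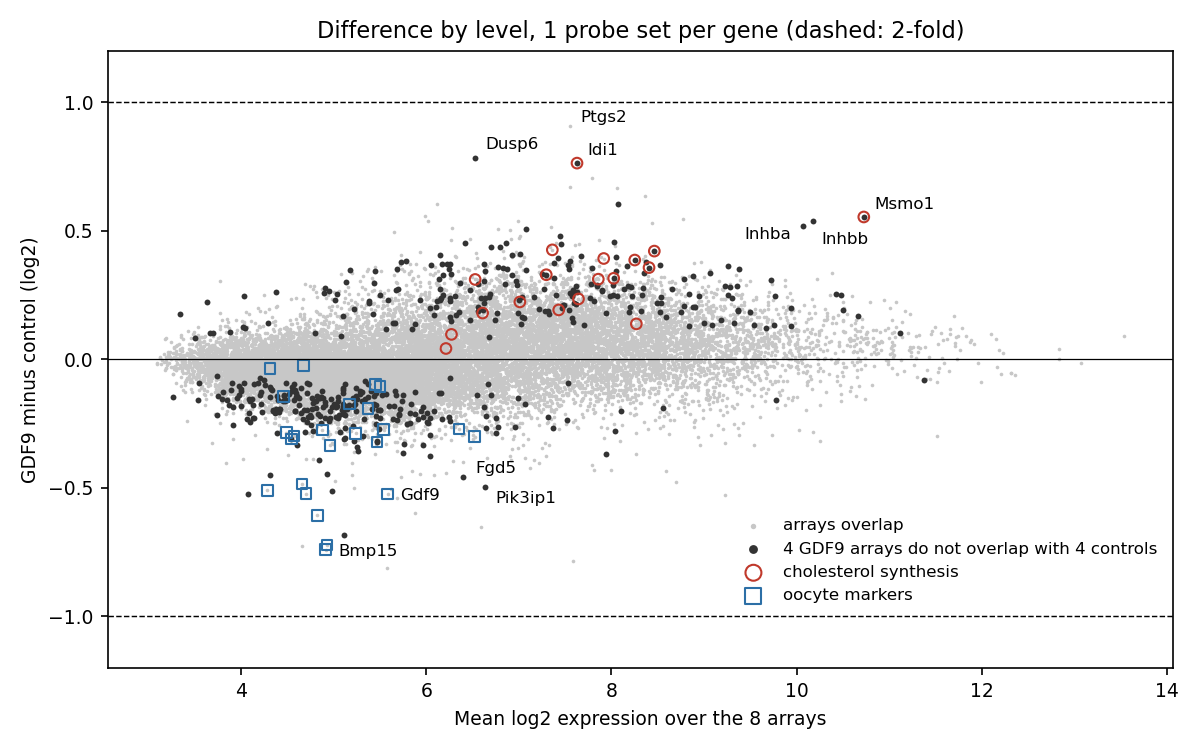
GDF9 minus control (log2) against the mean log2 level over the 8 arrays, 1 point per gene, with dark points where the 4 GDF9 arrays and 4 controls do not overlap, red circles for cholesterol synthesis genes and blue squares for oocyte markers. All points lie inside the dashed 2-fold lines, the 18 cholesterol synthesis genes lie above 0 and the 24 oocyte markers below it.

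The genes of cholesterol synthesis were the list with the highest median difference of 38. All 18 measured enzymes had higher means with GDF9, with a median of 0.31 and a range from 0.04 to 0.76, where the median was -0.02 over all genes and 0.05 over those with a mean of at least 6, of which 64.7% were higher. None passed the threshold over all rows. An unadjusted p under 0.05 with a higher mean was found for 10 of the 18, against 2.66% of all genes and 460 of the 9060 well-expressed ones. In 7 all GDF9 arrays lay above the controls, against 1.09% of all genes and 179 of the 9060. The mean over the 18 genes was 7.49, 7.54, 7.49 and 7.50 on the controls and 8.03, 7.71, 7.88 and 7.65 on the GDF9 arrays. Each GDF9 array lay above each control, array 1 by the most and array 4 by the least, and the gap between the lowest GDF9 and highest control array was 0.12. This gap was 0.03 after renewed quantile normalization.

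The early steps build isoprenoid units from acetyl-CoA. Hmgcs1, which makes HMG-CoA, read 8.04, 8.31, 8.38 and 8.28 on controls and 8.85, 8.60, 8.79 and 8.46 with GDF9, a difference of 0.42 ± 0.13 (SE; 95% interval 0.14 to 0.70). Its groups did not overlap. The next 3 enzymes, mevalonate kinase Mvk, phosphomevalonate kinase Pmvk and the decarboxylase Mvd, differed by 0.31 ± 0.18, 0.10 ± 0.16 and 0.19 ± 0.11, and the arrays of each overlapped. Idi1, the isomerase that interconverts the 2 isoprenoid units, had the largest difference of the list. It read 7.03, 7.29, 7.35 and 7.31 on controls and 8.24, 7.66, 8.46 and 7.67 with GDF9, or 0.76 ± 0.18 (95% interval 0.38 to 1.15; limma adjusted p = 0.971), so that GDF9 arrays 1 and 3 were far above the controls and arrays 2 and 4 less so. Fdps, farnesyl diphosphate synthase, differed by 0.14 ± 0.09 with overlapping arrays.

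The middle steps make squalene and close it to lanosterol. Fdft1, squalene synthase, was higher by 0.31 ± 0.11, Sqle, squalene epoxidase, by 0.36 ± 0.10 and Lss, lanosterol synthase, by 0.31 ± 0.19. The arrays of Fdft1 and Sqle did not overlap, although for Sqle the lowest GDF9 array, at 8.420, stood only just above the highest control, at 8.416. The arrays of Lss overlapped.

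The late steps turn lanosterol into cholesterol. Msmo1, the sterol C4-methyl oxidase, had the smallest unadjusted p of the list. It read 10.57, 10.44, 10.47 and 10.32 on controls and 11.17, 10.87, 11.12 and 10.85 with GDF9, or 0.55 ± 0.10 (95% interval 0.33 to 0.78; limma adjusted p = 0.847). All 4 GDF9 arrays lay above all controls, again with arrays 1 and 3 highest. Nsdhl, which acts with Msmo1 in removing the C4 methyl groups, was higher by 0.39 ± 0.10 and Dhcr7, the last reductase, by 0.33 ± 0.08, both without overlap. Cyp51, the lanosterol demethylase, was higher by 0.43 ± 0.19 and Sc5d, a desaturase, by 0.39 ± 0.12, both with overlap. The reductases Lbr and Tm7sf2 differed by 0.23 ± 0.08 and 0.04 ± 0.11, Hsd17b7 by 0.22 ± 0.14 and the isomerase Ebp by 0.18 ± 0.16.

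GDF9 array 1 was the highest of the 8 arrays for 14 of the 18 genes, a rank it held for 33.2% of genes with a mean of at least 6, and control 1 was the lowest for 8. Without GDF9 array 1 the median of the list was 0.24 with 17 of 18 higher, and without control 1 it was 0.30 with 18 higher. Without control 2, 17 of 18 were higher. Without controls 1 and 4 the median was 0.315, 17 of 18 were higher, and 6 in place of 10 were at an unadjusted p under 0.05. With FSH/EGF, which is compared with the same 4 controls, 15 of the 18 passed upward and the median was 1.03: Idi1 rose by 1.89 and Msmo1 by 1.14. Of the 9060 genes with a mean of at least 6, 3567 passed upward with FSH/EGF, and the median of the 9060 was 0.19.

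**Figure D3:**
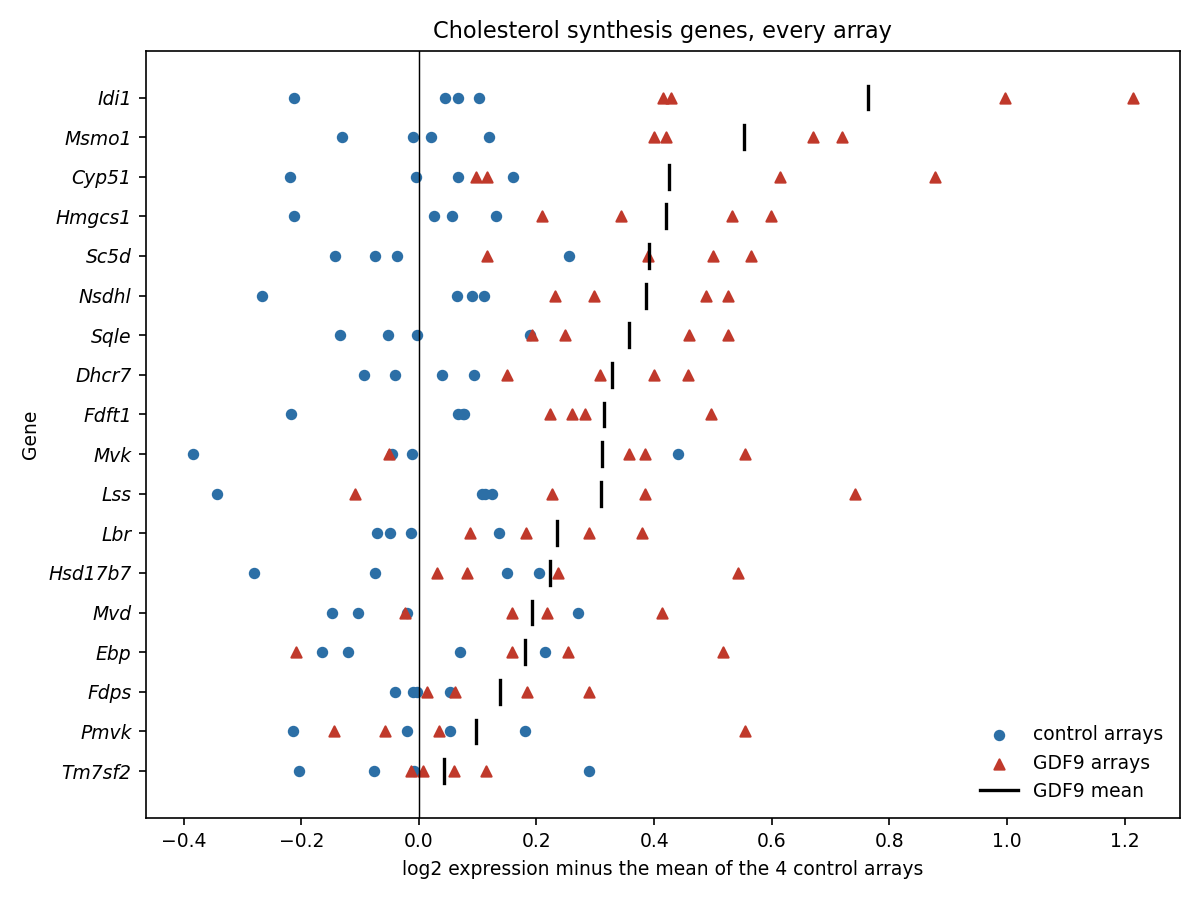
Log2 expression of the 18 cholesterol synthesis genes on every control array (circles) and GDF9 array (triangles), as the difference from the mean of the 4 controls of that gene, with black bars for the GDF9 mean, genes ordered by it. All 18 bars lie to the right of 0, and the 2 farthest GDF9 points of Idi1 are arrays 3 and 1.

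Sterol genes are transcribed through SREBP factors, which bind sterol response elements and act together with NF-Y at the CCAAT box. The proximal promoters of Idi1, Msmo1 and Hmgcs1, genes of the list without overlap between groups, and of Insig1, the sterol sensor described next, are shown because all 4 had higher GDF9 arrays without overlap. They are 250 bases before the annotated start, from RefSeq on GRCm38.p6, on the strand of the gene, at chr13:8885356-8885605 (+) for Idi1, chr8:64733579-64733828 (-) for Msmo1, chr13:119690101-119690350 (+) for Hmgcs1 and chr5:28071162-28071411 (+) for Insig1. Capitals mark CCAAT or its complement ATTGG, and TCACCCCAC, a match to the sterol element letters TCACNCCAC.
Idi1: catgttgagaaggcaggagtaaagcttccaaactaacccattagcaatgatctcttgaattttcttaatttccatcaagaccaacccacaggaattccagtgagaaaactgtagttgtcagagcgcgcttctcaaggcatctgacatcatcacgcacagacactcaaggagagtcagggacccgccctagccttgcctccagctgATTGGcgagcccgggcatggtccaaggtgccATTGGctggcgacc
Msmo1: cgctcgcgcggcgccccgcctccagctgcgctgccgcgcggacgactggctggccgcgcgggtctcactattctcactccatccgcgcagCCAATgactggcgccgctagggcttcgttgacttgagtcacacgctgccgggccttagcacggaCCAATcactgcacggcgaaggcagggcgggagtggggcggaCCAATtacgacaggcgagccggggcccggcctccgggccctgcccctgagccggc
Hmgcs1: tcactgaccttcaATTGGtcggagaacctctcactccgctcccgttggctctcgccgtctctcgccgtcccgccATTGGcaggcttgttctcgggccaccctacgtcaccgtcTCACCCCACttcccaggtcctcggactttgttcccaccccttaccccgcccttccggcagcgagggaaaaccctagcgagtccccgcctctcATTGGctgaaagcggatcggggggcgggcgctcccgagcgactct
Insig1: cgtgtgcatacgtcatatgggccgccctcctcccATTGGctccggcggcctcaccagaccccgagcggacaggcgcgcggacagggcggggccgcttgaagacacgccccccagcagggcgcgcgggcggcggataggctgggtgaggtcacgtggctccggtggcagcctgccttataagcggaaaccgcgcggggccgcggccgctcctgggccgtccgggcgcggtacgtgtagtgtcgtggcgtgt
Promoter windows were found for 15 of the 18 genes. CCAAT on either strand occurred in 15 of 15, in 33.8% of all 32851 windows of this length and in 40.1% of measured genes with a mean of at least 6. TCACNCCAC on either strand occurred in 1 of 15, Hmgcs1, and in 1.05% of all windows. A match is a description of letters, not a bound site.

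The genes that control sterol levels did not follow as a list: 9 of 16 were higher and 7 lower, the median was 0.02, and it was -0.02 after renewed quantile normalization. Insig1, which holds SREBP in the endoplasmic reticulum and is itself an SREBP target, read 9.10, 9.18, 9.22 and 9.31 on controls and 9.71, 9.43, 9.54 and 9.54 with GDF9, or 0.35 ± 0.09, without overlap. Srebf2 and Srebf1, the SREBP genes, differed by 0.16 ± 0.08 and 0.16 ± 0.09. Stard4, a sterol carrier, differed by 0.29 ± 0.15, and the efflux transporters Abca1 and Abcg1 by -0.35 ± 0.19 and -0.17 ± 0.10. All of these except Insig1 had overlapping arrays. Of 15 genes of fatty acid synthesis 12 were higher, with a median of 0.13. An unadjusted p under 0.05 with a higher mean was found for 3, against 460 of the 9060 genes with a mean of at least 6. They were Acsl4, which activates fatty acids, at 0.41 ± 0.16, the elongase Elovl6 at 0.34 ± 0.10 and Acaca, acetyl-CoA carboxylase, at 0.28 ± 0.09. Acaca alone of these had no overlap, with its lowest GDF9 array at 7.90 and its highest control at 7.85.

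Dusp6, a phosphatase that turns off ERK and is itself an ERK target, had the smallest unadjusted p of the genes with a mean of at least 6. It read 6.20, 6.05, 6.02 and 6.25 on controls and 7.13, 6.99, 6.41 and 7.12 with GDF9, or 0.78 ± 0.14 (95% interval 0.48 to 1.09; limma adjusted p = 0.847). The groups did not overlap, and GDF9 array 3 lay well below the other GDF9 arrays. Without that array the difference was 0.95 and the limma adjusted p 0.0103, the only row past the threshold there. FSH/EGF raised Dusp6 by 3.47.

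Other genes of the ERK list differed less. Spred2, an inhibitor of the pathway, was at 6.47 ± 0.27 on controls and 6.91 ± 0.19 with GDF9, or 0.44 ± 0.13, and Etv5, an ETS factor downstream of ERK, at 4.91 ± 0.20 and 5.24 ± 0.22, or 0.33 ± 0.13. Both overlapped, Spred2 through control 4. Of the 27 genes of feedback and early response 20 were higher (74.1%, against 64.7% of genes with a mean of at least 6), with a median of 0.08. At an unadjusted p under 0.05 there were 3, against 4.95% of all genes, and 1 had no overlap, against 2.32%. Spred1 differed by 0.24 ± 0.14. Among EGF-like ligands and receptors, 6 of 13 were higher and 7 lower, and Hbegf, a ligand of the EGF receptor, was lower by 0.23 ± 0.10 without overlap.

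Receptors and SMADs of the TGF-beta family, among them Bmpr2, Tgfbr1, Smad2 and Smad3, differed little. Of 20 genes 9 were higher and 11 lower, the median was -0.01 (0.03 with equal array medians), and none was at an unadjusted p under 0.05. Bmpr2 stood at 11.56 ± 0.24 in controls and 11.47 ± 0.13 with GDF9, and Tgfbr1 at 8.83 ± 0.28 and 8.81 ± 0.28. Bmpr1b, a type I receptor for BMP ligands, differed by -0.12 ± 0.09 and Tgfbr3, a coreceptor, by -0.26 ± 0.12.

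The targets of SMAD2 and SMAD3 did not move 1 way. Of 21 genes 9 were higher and 12 lower with a median of -0.01, which was 0.03 with equal array medians. Ccn2, a classic TGF-beta target, read 7.29, 6.95, 6.97 and 7.17 on controls and 6.63, 6.89, 6.72 and 6.95 with GDF9, or -0.30 ± 0.10, with overlap at 6.95. Smad7, the inhibitory SMAD, differed by -0.11 ± 0.15, with a positive value of 0.03 when control 4 was left out. Of the repressors Ski and Skil, Ski differed by -0.22 ± 0.09 and Skil by 0.22 ± 0.10, and Pmepa1, a feedback inhibitor, by 0.10 ± 0.10.

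Targets of the BMP branch, SMAD1 and SMAD5, were higher in 7 of 11 genes, with a median of 0.12. It ran from 0.01 without control 2 to 0.23 without controls 1 and 4. Id2, an inhibitor of basic helix-loop-helix factors, read 6.79, 6.42, 6.39 and 6.99 on controls and 7.50, 7.20, 7.06 and 6.86 with GDF9, or 0.50 ± 0.15, and overlapped only through GDF9 array 4. Id1 and Id3 differed by 0.21 ± 0.23 and 0.31 ± 0.19, and Smad6 by 0.25 ± 0.15. With FSH/EGF Id2 stood at -0.29 from the same controls and did not pass the threshold.

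Both beta subunits of activin and inhibin were higher. Inhbb, the beta B subunit, read 9.90, 9.74, 10.09 and 9.89 on controls and 10.51, 10.51, 10.62 and 10.14 with GDF9, or 0.54 ± 0.11 (95% interval 0.29 to 0.78; limma adjusted p = 0.971). Inhba, the beta A subunit, read 9.47, 9.83, 9.94 and 10.00 on controls and 10.44, 10.33, 10.33 and 10.20 with GDF9, or 0.52 ± 0.15. Neither overlapped. Against the same controls FSH/EGF raised Inhba by 1.02 and lowered Inhbb by 0.89. Fst and Fstl3, which bind activin, differed by -0.05 ± 0.09 and -0.17 ± 0.13, and of the whole list of 11 genes 5 were higher and 6 lower.

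Of the genes of cumulus expansion, Ptgs2, Has2 and Ptx3 had the largest differences. Ptgs2, which makes prostaglandins, read 7.30, 7.03, 6.35 and 7.70 on controls and 8.56, 8.75, 7.46 and 7.24 with GDF9. Has2, hyaluronan synthase, read 7.15, 8.02, 7.30 and 8.46 on controls and 8.64, 8.68, 7.83 and 8.43 with GDF9. Ptx3, a matrix crosslinker, read 6.70, 7.73, 7.04 and 8.27 on controls and 8.49, 8.70, 7.66 and 7.72 with GDF9. GDF9 arrays 1 and 2 were the highest of the 8 for these genes, and the groups of each overlapped. For Has2 and Ptx3, controls 2 and 4 lay above GDF9 array 3, and for Ptgs2, controls 1 and 4 lay above GDF9 array 4. Tnfaip6, which links hyaluronan, ordered the controls as Has2 and Ptx3 did, from 6.48 on control 1 to 7.66 on control 4, and differed by 0.30 ± 0.27. The differences of Ptgs2, Has2 and Ptx3 were 0.91 ± 0.34, 0.67 ± 0.26 and 0.71 ± 0.31, where FSH/EGF raised them by 4.83, 2.88 and 4.30. Of 16 expansion genes 12 were higher, with a median of 0.08, 3 at an unadjusted p under 0.05 and 0 without overlap. Over all genes, 2.66% were higher at that p and 2.32% had no overlap. Grem1, a BMP antagonist of cumulus cells, differed by 0.08 ± 0.10 and the receptor Tnfrsf12a by 0.16 ± 0.10.

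**Figure D4:**
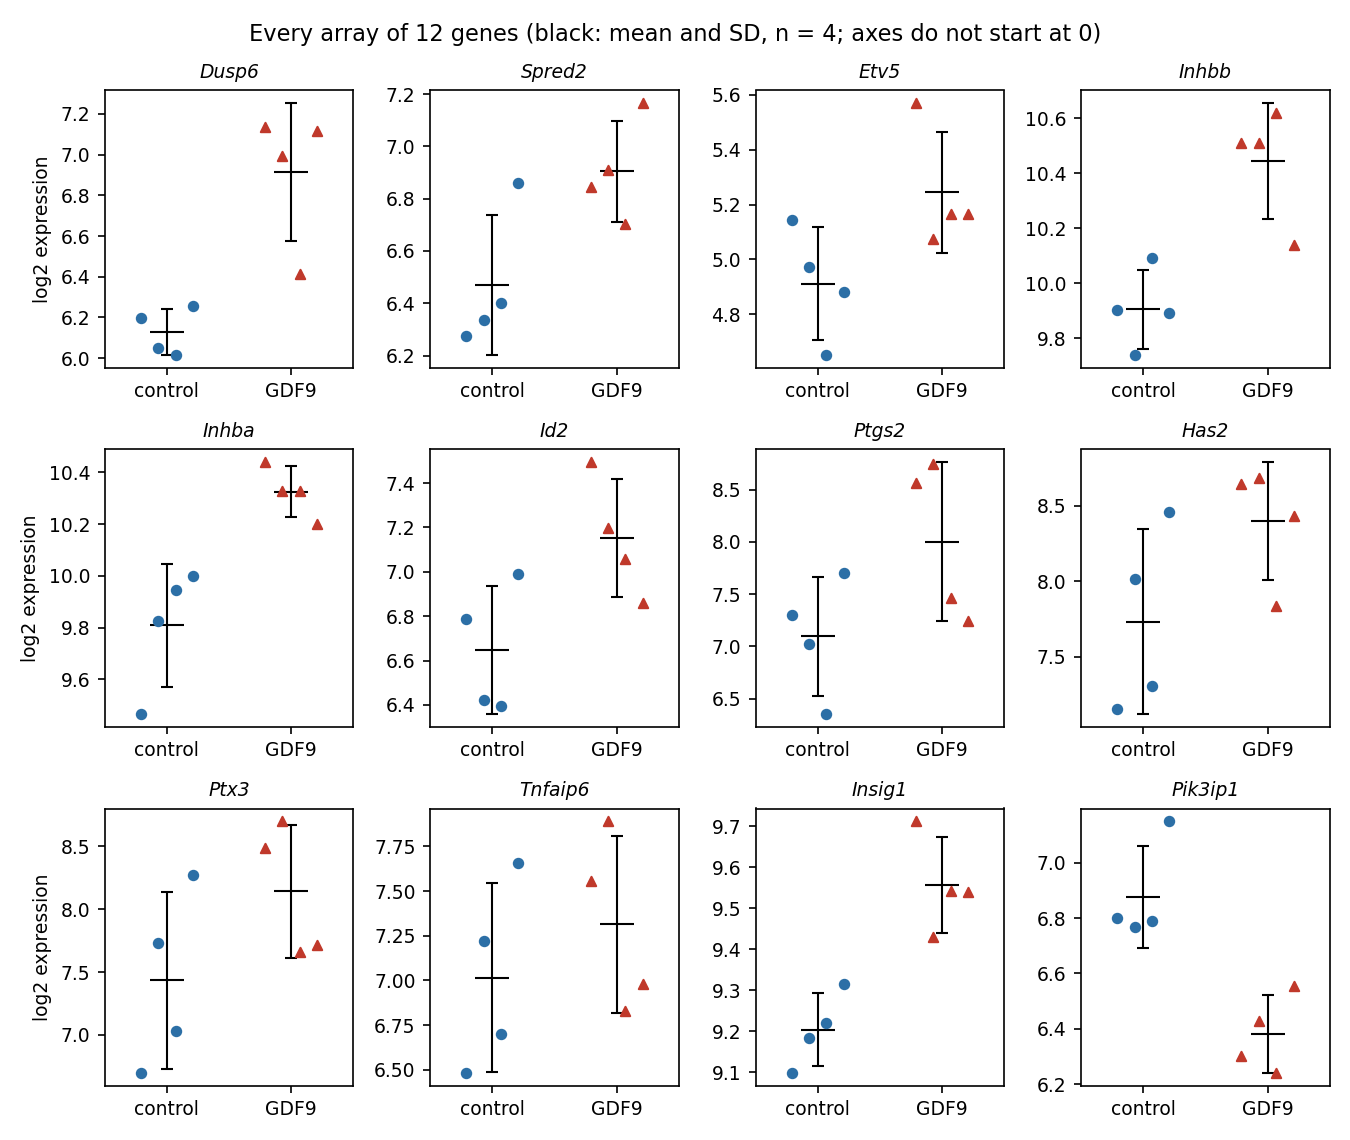
Log2 expression of 12 genes on every control array (circles) and GDF9 array (triangles), with the mean and SD of 4 arrays in black and an axis of its own for each gene that does not start at 0. Dusp6, Inhbb, Inhba and Insig1 lie higher and Pik3ip1 lower without overlap, and the other 7 genes overlap.

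Among prostaglandin genes, Ptges3, a prostaglandin E synthase, was at 0.34 ± 0.14 and Pla2g4a, the phospholipase that releases arachidonate, at 0.27 ± 0.09, but 9 of the 14 listed genes were lower. Ugp2, which makes UDP-glucose for hyaluronan, differed by 0.25 ± 0.10, and 10 of 13 hexosamine and hyaluronan precursor genes were higher, with a median of 0.10.

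By the rule for named genes, the largest other differences without overlap were Slc35f2, a membrane transporter, at 0.61 ± 0.19, Tbc1d8b, a TBC domain protein, at 0.51 ± 0.15, and Kdelr3, a receptor that returns proteins to the endoplasmic reticulum, at 0.48 ± 0.13. Slc35f2 was lower with FSH/EGF, by 1.37, against the same controls. Smaller in size but with small SE were Ltv1, a ribosome assembly factor, at 0.45 ± 0.10, Baz1a, a chromatin remodeller, at 0.36 ± 0.08 and Arpc5l, a subunit of the ARP2/3 complex, at 0.33 ± 0.07. None of these 6 overlapped.

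On the lower side, Pik3ip1, an inhibitor of phosphoinositide kinase signalling, had the largest difference without overlap among genes with a mean of at least 6. It read 6.80, 6.77, 6.79 and 7.15 on controls and 6.30, 6.43, 6.24 and 6.56 with GDF9, or -0.50 ± 0.10 (95% interval -0.71 to -0.28; limma adjusted p = 0.869). Fgd5, a Cdc42 exchange factor, read 6.50, 6.84, 6.52 and 6.65 on controls and 5.99, 6.38, 5.99 and 6.33 with GDF9, or -0.46 ± 0.11. Both lay below all controls on all 4 GDF9 arrays, and both were lower with FSH/EGF, by 1.59 and 1.18. Proser2, the basic helix-loop-helix factor Arnt2, Adck5, the Notch coactivator Maml2, the histone gene H2ac1 and the mitochondrial deacetylase Sirt3 were lower by 0.26 to 0.37 without overlap. Nceh1, a cholesterol ester hydrolase, and Ss18, a chromatin subunit, were lower by 0.33 and 0.27 and overlapped.

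Genes that oocyte factors are known to sustain in cumulus cells did not shift as a list: 8 of 15 were higher and 7 lower, with a median of 0.00 (-0.05 after renewed quantile normalization). Fgfr2, a fibroblast growth factor receptor, was at 0.29 ± 0.12, and Nobox, which is also on the oocyte marker list, at -0.31 ± 0.09 without overlap. Nobox read 4.30 to 4.89 on the control and GDF9 arrays, below the array medians of 5.42 to 5.53, and was highest on control 4. Slc38a3, an amino acid transporter of cumulus cells, differed by -0.25 ± 0.13 and Amh, anti-Müllerian hormone, by -0.31 ± 0.31. Amh rested on control 1, which stood at 8.36 where the other controls were at 6.68 to 7.07, and without it the difference was 0.06. Nor did the 9 mural genes that oocyte factors hold down, with 4 higher and 5 lower and a median of -0.03, which was 0.0019 with equal array medians and 0.0069 without GDF9 array 1. Only 3 of these 9 had a mean of at least 6, so that a fall could hardly show in the others. Lhcgr, Cyp19a1 and Adra2a were listed but not matched to a measured gene. Kitl, the kit ligand, read 5.74, 5.63, 5.82 and 5.82 on controls and 6.73, 6.28, 6.54 and 5.60 with GDF9, or 0.54 ± 0.20, so that 3 GDF9 arrays lay above all controls and array 4 below them. Plpp3, a lipid phosphatase, was at 0.28 ± 0.08 without overlap.

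Of the granulosa identity and FSH response genes, 12 of 16 were higher (75%, against 64.7% of genes with a mean of at least 6). The median was 0.05 (0.01 after renewed quantile normalization), and the list was the only one besides cholesterol synthesis whose array means did not overlap. They stood at 9.06, 9.12, 9.15 and 9.15 on controls and at 9.27, 9.17, 9.20 and 9.18 with GDF9. The gap was narrow, with 9.168 on GDF9 array 2 and 9.148 on control 3. Inhba and Inhbb are members, and only these 2 of the 16 had no overlap as single genes. Of all genes 1.09% lay above the controls without overlap, and 179 of the 9060 with a mean of at least 6. Whether the array means separate without them was not tested. Wt1, a granulosa transcription factor, differed by -0.25 ± 0.12 and Ccnd2, cyclin D2, by 0.18 ± 0.09. The steroidogenic factor Nr5a1 was lower by 0.30 ± 0.11 and Fdx1, which feeds electrons to the side-chain cleavage enzyme, differed by 0.42 ± 0.19, both with overlap. Of 14 genes of steroidogenesis 6 were higher.

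In glycolysis 14 of 18 genes were higher with a median of 0.07, and Ldha, lactate dehydrogenase A, differed by 0.21 ± 0.10. The 18 include Pigq, which the listed name Gpi1 matched as a synonym and which is not the glycolytic isomerase. Count and median are thus not of glycolysis genes alone. Gapdh and Eno1 were listed but not matched to a measured gene. Among 20 genes of G1/S and DNA replication, 14 were higher. An unadjusted p under 0.05 with a higher mean was found for 4, against 460 of the 9060 genes with a mean of at least 6. They were the sliding clamp Pcna at 0.38 ± 0.13, the ribonucleotide reductase subunit Rrm1 at 0.31 ± 0.12, and the helicase subunits Mcm4 at 0.27 ± 0.09 and Mcm3 at 0.24 ± 0.09. Mcm4 alone of these had no overlap. Of 20 mitosis genes 17 were higher, with a median of 0.09 and none at an unadjusted p under 0.05.

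Large sets of housekeeping genes had medians at or somewhat above that of well-expressed genes, 0.05. Of 39 proteasome subunits 36 were higher, with a median of 0.11, 3 at an unadjusted p under 0.05 and Psmd11 at 0.28 ± 0.07 without overlap. Of the 9060 genes with a mean of at least 6, 460 were higher at that p and 179 lay above the controls without overlap. Of 77 oxidative phosphorylation subunits 64 were higher, with a median of 0.10, and Ndufa4 and Ndufc2 were at 0.32 ± 0.12 and 0.27 ± 0.11. Of 61 cytosolic ribosomal proteins 48 were higher with a median of 0.05. After renewed quantile normalization the medians were 0.07, 0.04 and 0.02. GDF9 array 1 was the highest array for 21 of the 39 proteasome subunits and control 1 the lowest for 20. In the remaining lists single genes differed by more than their list: Hsp90aa1, a chaperone, by 0.25 ± 0.08, Hif1a, the hypoxia factor, by 0.33 ± 0.09, and Sparc, a matrix protein, by 0.25 ± 0.07, none with overlap. Irs1, the insulin receptor substrate, differed by -0.43 ± 0.20 with overlap.

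Oocyte markers were the list with the lowest median. All 24 had lower means with GDF9, with a median of -0.29. Only 2 of the 24 had a mean of at least 6. Lower means were found for 56.3% of all genes but for only 3199 of the 9060 with such a mean. Dimmer genes were thus lower more often than genes at large. An unadjusted p under 0.05 with a lower mean was found for 4 of the 24, against 2.29% of all genes and 101 of the 9060. In 2, Nobox and Tle6, the GDF9 arrays lay below the controls without overlap, against 1.23% of all genes. Without control 4, which held the most oocyte transcript, the median of the list was -0.10 and 21 of 24 were lower. Without controls 1 and 4, 18 of 24 were lower. The 12 leukocyte markers were also all lower, with a median of -0.09 at levels near background, and 0 of them had a mean of at least 6. Theca and stroma, endothelial and surface epithelium markers had medians of -0.09, -0.04 and -0.10. The part of these markers in the other differences was not tested. Over the 38 lists, medians ran from -0.29 to 0.31, 23 were positive and 15 negative.

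**Figure D5:**
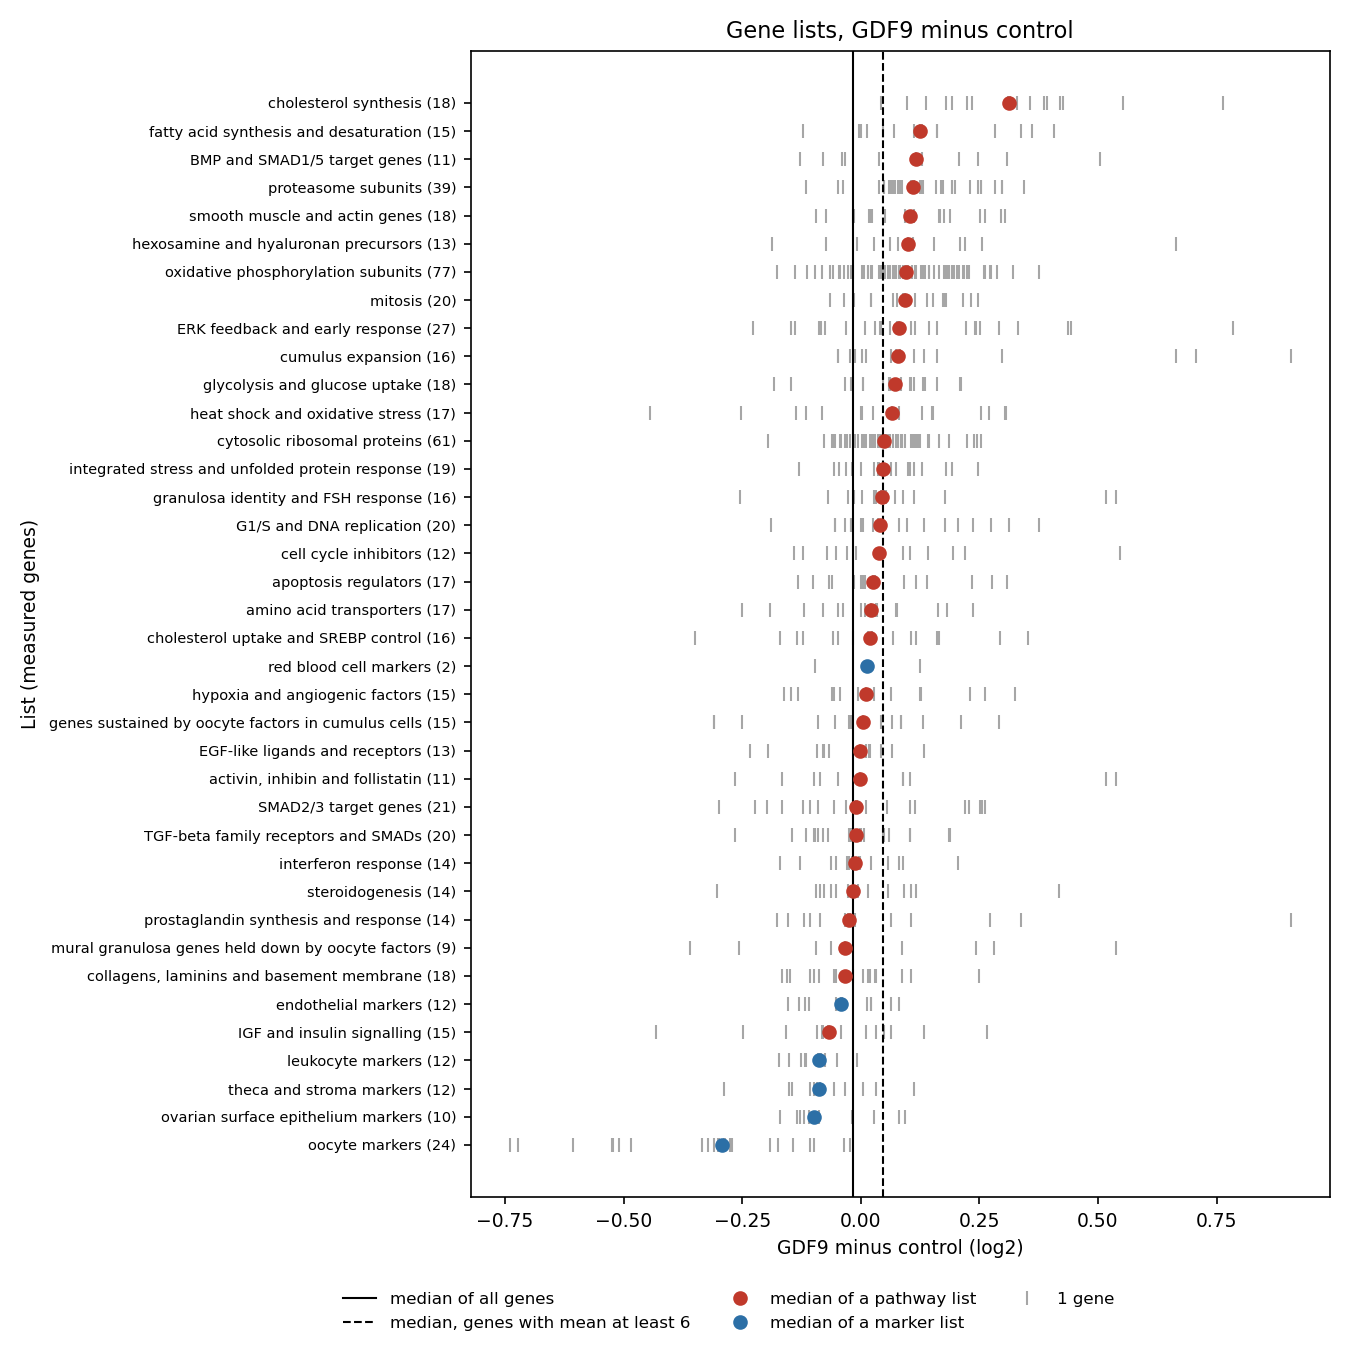
GDF9 minus control (log2) for each measured gene (ticks) of 38 lists, with the median of each pathway list (red) and marker list (blue), the number of genes in brackets, and vertical lines for the median of all genes (solid, -0.02) and of genes with a mean of at least 6 (dashed, 0.05). Cholesterol synthesis stands farthest to the right at 0.31 and oocyte markers farthest to the left at -0.29.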

How the data were processed

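RNA of cumulus cells was measured on 12 mouse arrays, 4 per culture condition. The deposited table holds log2 values that the authors had normalized, with 35399 rows from 2.916 to 14.29. Per the submitters' processing notes, RMA, Partek and GCOS were used, with no role or version stated; the sources used here do not give a genome build. GEO's platform annotation gave 1 symbol for 21789 rows, several for 1621, and did not list 11989, which were tested but are unnamed here. Genes with several probe sets numbered 999.

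limma (version 3.58.1, R 4.3.3) fitted 1 mean per group over all 12 arrays and moderated the variances; p-values of all rows were adjusted together (Benjamini-Hochberg), with a threshold of 0.05. The model was tested on simulated data. Lists were described by counts and medians, without a test. The members, the 38 lists and the rules were chosen with earlier results of these data known. Named genes were, with a mean of at least 6, the 8 largest differences in each direction without overlap and the 6 smallest p in each direction (passing over predicted genes, olfactory and vomeronasal receptors and small RNAs), all members of the sterol lists, up to 4 per other list and 2 per marker list by p, and 28 in any case; some are given only as counts. Alternatives were a variance trend, robust moderation, the 8 arrays alone, array weights, dim rows left out, 2 other scalings, the replicate number as a block, single-symbol rows, the mean over probe sets, and arrays left out singly and controls 1 and 4 together. Promoter letters were searched in RefSeq windows of 250 bases. Arrays give no read depth, and their number limits the precision.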

Additional observations from a re-analysis of the deposited data

Results flagged for a closer look

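In 290 groups of 4 arrays, 16 had an array whose gap to the nearest other exceeded Dixon's critical value, as a share of the group's range. Chance gives this in about 1 in 20 groups. Control 1 was low for Fdft1 (7.65, others 7.93 to 7.94), Lss (6.03, others 6.48 to 6.50), Psmd6 (7.20, others 7.69 to 7.77) and Hif1a (8.48, others 8.77 to 8.82), and for the means of the mitosis list (7.25, others 7.52 to 7.57) and the proteasome list (8.13, others 8.28 to 8.29). Control 4 was low for Nsdhl (7.79, others 8.12 to 8.17) and high for Pik3ip1 (7.15, others 6.77 to 6.80), H2ac1 (7.76, others 7.39 to 7.45) and the oocyte gene Bmp15 (6.80, others 4.63 to 4.93). It was also high for the means of the oocyte markers (5.85, others 4.95 to 5.09) and of the mural granulosa list (6.02, others 5.76 to 5.78).

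Control 3 was low for Fst (11.41, others 11.59 to 11.62) and for the mean of EGF-like ligands and receptors (5.96, others 6.01 to 6.02). GDF9 array 3 was low for Tnfrsf12a (8.06, others 8.17 to 8.18) and for the mean of the hypoxia list (6.47, others 6.56 to 6.57).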

How the results depend on the processing

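Of the alternatives run on the count of rows past the threshold (all but the mean over probe sets, which applies to genes), 1 row passed without GDF9 array 3 (Dusp6) and 0 under the others, so that the count ran from 0 to 1 with arrays left out. Rows at an unadjusted p under 0.05 numbered 1590, with 1015 from the 8 arrays alone, 976 with dim rows left out, and 1213 to 3279 with single arrays left out, the highest without GDF9 array 2. Genes without overlap numbered 462, and 734 to 1874 with single arrays left out, again highest without GDF9 array 2, and 2061 without controls 1 and 4; fewer arrays overlap less often by construction. Of 107 genes under 19 alternatives, 2018 of 2031 differences kept their direction. The other 13 came from 6 genes: Pmvk was at -0.0198 without controls 1 and 4 and at -0.0559 (without GDF9 array 1) to 0.177 with single arrays left out, Tm7sf2 at -0.0259 (without control 2) to 0.138, Fst at 0.0026 without controls 1 and 4 and at -0.125 to 0.0034 (without GDF9 array 2), Tgfbr1 at 0.0117 with equal medians and at -0.158 to 0.107 (also 0.0383 and 0.0477), Smad7 at 0.0302 without controls 1 and 4 and at -0.208 to 0.0263 (without control 4), and Amh at 0.155 without controls 1 and 4 and at -0.496 to 0.0611 (without control 1). The cause was not tested. With the replicate number as a block, 0 rows passed (smallest adjusted p 0.348) and 1563 were at an unadjusted p under 0.05. Same-numbered deviations correlated at -0.389 to 0.221, and 1 of 4 numbers matched best with itself, so that no clear pairing by number was seen. Whether arrays of the same number were prepared together was not tested. The median of the cholesterol list ran from 0.24 to 0.39. The number of arrays limits what can be seen.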

Other observations

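In all, 18 genes were lower by at least 0.5, and 15 of them had their highest value on control 4, as had 10.2% of all genes. The shares are not alike, as genes picked for a higher control mean will mostly peak on a control array. Of the 18, 6 are oocyte markers. In 4 others, chosen after their values were seen, controls 2 and 4 were the highest controls. Adamts5, a protease of the matrix proteoglycan versican, read 7.397, 8.417, 7.575 and 8.504 on controls and 7.18, 6.859, 6.625 and 8.088 with GDF9, or -0.78 ± 0.32. Bmp2, a BMP ligand, read 5.73, 6.76, 5.69 and 6.52 on controls and 5.42, 5.80, 5.11 and 5.97 with GDF9, or -0.60 ± 0.24. Syt10, a synaptotagmin, and Itgb8, an integrin subunit, stood at -0.65 ± 0.30 and -0.54 ± 0.18. The groups of all 4 genes overlapped.

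On the higher side, Procr and Rftn1 were also chosen after their values were seen. Procr, the protein C receptor, read 7.08, 7.39, 6.72 and 7.71 on controls and 8.38, 8.59, 7.48 and 7.12 with GDF9, or 0.67 ± 0.29, with GDF9 arrays 1 and 2 highest as for Ptgs2. Rftn1, a lipid raft protein, was at 0.54 ± 0.18. Both overlapped.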
